A study of Mus musculus with 2 samples.

Results

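Histone genes fall into replication-dependent genes, whose mRNAs end in a stem-loop, and variant genes, whose mRNAs carry a poly(A) tail. The members were the protein-coding genes of the mouse GENCODE annotation on GRCm38 whose symbols begin with Hist1h, Hist2h, Hist3h, Hist4h, H2af, H3f3 or H1f. These were 82 of 21951 protein-coding genes, 67 with a Hist1h, Hist2h, Hist3h or Hist4h symbol (stem-loop histone genes) and 15 with an H2af, H3f3 or H1f symbol (polyadenylated variant genes). Crosslinks of Tia1 to RNA were mapped by iCLIP in cytoplasmic extracts of splenic B cells of C57BL/6 mice activated with LPS at 10 µg/ml for 48 h. Replicates 1 and 2 formed the single group, and no untreated or isotype control was analysed here. In iCLIP, UV light joins protein to RNA and reverse transcription stops next to the joined base, so the start of each cDNA marks a bound nucleotide.

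Replication-dependent histone mRNAs are made in S phase and supply new chromatin. Their 3′ ends are cut shortly after a conserved stem-loop, which is held by the stem-loop binding protein Slbp and governs export, translation and decay of the message, whereas variants such as H3.3, H2A.Z and macroH2A are made throughout the cell cycle from ordinary polyadenylated mRNAs. Tia1, a marker of stress granules, binds RNA and prefers uridine-rich sequence, and B cells activated by LPS divide.

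The unit of every count is the unique cDNA at a low-FDR site, a nucleotide that the authors called above a permuted background. Replicate 1 held 639108 cDNAs at 342732 sites and replicate 2 held 165081 cDNAs at 93512 sites, and replicate 2 gave 20.6% of the cDNAs of both that were placed on GRCm38. The authors also called sites on the sum of both experiments (867271 cDNAs). A pooled count can exceed the sum of the replicates because it includes cDNAs of a replicate at sites not called in that replicate. A 0 in a replicate therefore means no called site, not a lack of cDNAs. Unless another list is named, counts are pooled, with those of replicates 1 and 2 beside them. The study describes the replicates as independent experiments, and with 1 group of 2 samples no test over samples was possible, so the intervals given are exact (Clopper-Pearson) 95% intervals of counting error alone. mRNA levels were not measured here, so more binding and more mRNA cannot be told apart. The titles give Tia1 as the target, but the antibody label gives Tial1, its close relative, and the study's methods describe a Tia1-specific antibody. UV dose and RNase concentration also differ between labels and methods. Exonic cDNAs were found in either replicate for 8 of 8 B cell markers, against 1 of 6 for T cells, 2 of 6 for myeloid cells, 1 of 5 for erythroid cells and 0 of 4 for NK cells.

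Tia1 crosslinked to transcripts of both classes. Of the 67 stem-loop genes, 47 had at least 1 exonic cDNA and 31 had exonic cDNAs in both replicates, while 40 reached 10 pooled cDNAs, 7 had 1 to 9 and 20 had none. Of the 15 variant genes, 7 had exonic cDNAs, all of them at least 10, and 8 had none. Over all protein-coding genes, 35.6% had an exonic site. Annotated 3′UTRs held a site in 35 of 54 stem-loop genes and in 7 of 12 variant genes, against 35.0% of all genes with an annotated 3′UTR. A site in both replicates was called in 17 of those 54 stem-loop 3′UTRs and 5 of the 12 variant ones, against 22.2% of all genes. The classes differed most in the 5′UTR, which held a site in 31 of 56 stem-loop genes and 2 of 12 variant genes, against 3.48% of all genes with an annotated 5′UTR. In both replicates the 5′UTR counts were 20 of 56 stem-loop genes and 0 of 12 variant genes, against 0.789% of all genes. Among genes with at least 10 exonic cDNAs and an annotated 5′UTR, 29 of 37 stem-loop genes had a 5′UTR site, against 11% of all such genes. That threshold itself counts 5′UTR cDNAs. Some genes passed it through them alone, such as Hist1h3f (101 of 101) and Hist1h4m (54 of 54). The last comparison is therefore not independent of its filter.

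The strongest binding in stem-loop histone genes lay in the short stretch between the stop codon and the stem-loop, called the spacer here. A stem-loop of 6 paired bases and a loop of 4 bases was found by sequence within 150 nt of the stop codon in 66 of the 67 stem-loop genes, Hist2h2be being the exception, and in 1 variant gene, H2afx. The search allowed at most 1 broken pair, and 69 of 21853 protein-coding genes (0.316%) and 2 of 21771 non-histone genes (0.00919%) held such a motif. The commonest form, carried by 41 genes, is shown to fix what the spacer runs up to, with its stem in capitals and its loop in lower case.
Commonest histone stem-loop: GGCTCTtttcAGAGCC
The following sequences, read from the RefSeq GRCm38.p6 genome, are the spacers or spacer windows with the most cDNAs. They are written with T for U along the transcript, and capitals mark every nucleotide with a low-FDR site in the pooled list.
Hist1h4d, chr13:23581917-23581946, plus strand: TACTCATTTATTTTTCTTCACCCAAAAACC
Hist1h2af, chr13:23534315-23534344, plus strand: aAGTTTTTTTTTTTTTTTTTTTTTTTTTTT
Hist1h4a, chr13:23760816-23760845, minus strand: GACTTTTTTAATTTGTATTTTCTAACCaaa
Hist1h4k, chr13:21750166-21750193, minus strand: GTCTTTGTCTTTTATTTCTGCtacaaaa
Hist1h4b, chr13:23757336-23757365, plus strand: aCTaaagcgATTTTCTTAACTGTTACaAaa
Hist1h3c, chr13:23745063-23745086, minus strand: tggTTTTTATgCTATTTAaaaaaa
Hist1h3h, chr13:21718070-21718094, plus strand: agTTCGtCTTTCTGTGTTTTtcaaa
Those of Hist1h4d, Hist1h4a, Hist1h4b and Hist1h3c lie in annotated 3′UTRs. Those of Hist1h2af, Hist1h4k and Hist1h3h lie outside annotated exons, since their gene models end at or within 1 nt of the stop codon.

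Hist1h4d, a histone H4 gene, had 1811 spacer cDNAs, 1170 in replicate 1 and 641 in replicate 2. Every base of its printed stretch was a site, and the highest, 20 nt before the stem, held 217 cDNAs (144 and 73). Among the 18717 windows of 31 nt with at least 10 cDNAs anywhere in the pooled list, its window ranked 1 (1809 cDNAs, 1168 and 641). Hist1h2af, an H2A gene, had 1167 spacer cDNAs (817 and 350) over a run of 27 U, and its window ranked 3. Of the 30-mers starting in this spacer, 60% are unique in the genome, so its count is less certain than that of Hist1h4d, whose spacer is unique throughout.

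The H4 genes Hist1h4a and Hist1h4k followed, with 724 (461 and 263) and 604 (398 and 206) spacer cDNAs. Hist1h4b, also H4, had 271 (215 and 56), and the H3 genes Hist1h3c and Hist1h3h had 174 (145 and 29) and 173 (149 and 24). The 4 highest spacers took a larger part of their cDNAs from replicate 2 than the 20.6% of the series, with 35.4% in Hist1h4d (33.2 to 37.6), 30% in Hist1h2af (27.4 to 32.7), 36.3% in Hist1h4a (32.8 to 39.9) and 34.1% in Hist1h4k (30.3 to 38.0). Hist1h4b gave 20.7% (16 to 26), Hist1h3c 16.7% (11.5 to 23.1) and Hist1h3h 13.9% (9.1 to 19.9). A replicate count includes only sites called in that replicate, and replicate 2 is the shallower library. The part of depth and site calling in these shares was not tested, and the intervals do not cover it. The annotated 3′UTR of Hist1h4d, with 1815 cDNAs, ranked 18 among the 3′UTRs of all genes, and that of Hist1h4a ranked 128.

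Over all 66 genes with a stem-loop, 44 spacers held cDNAs and 23 held them in both replicates, 5853 in all (4163 and 1652). The spacers are 21 to 58 nt long (median 30.5 nt), and their density was 2730 cDNAs per kb of sequence (1940 and 769), against 3.79 per kb (1.89 and 1.89) in the stem-loops that follow them. The stem-loops held 4 cDNAs (2 and 2) in all. The median cDNA lay 19 nt before the first stem base (quartiles 15 and 24 nt), with a median of 18 nt in replicate 1 and 20 nt in replicate 2. The nearest lay 3 nt away. Only 136 (2.32%) were within 6 nt of the stem, and 80.8% were 11 to 30 nt from it, a range chosen after the values were seen. Hist1h4d and Hist1h2af weighed heavily here, and without them 2875 cDNAs in 42 genes had a median of 16 nt. In the 37 genes with at least 10 spacer cDNAs, the gene's own median ran between 5.5 nt (Hist1h2bm) and 36 nt (Hist1h1e), with a middle value of 16 nt. Of the spacers printed above up to the stem, those of Hist1h4a, Hist1h4k, Hist1h4b and Hist1h3c have no U in their last 6 nt, whereas that of Hist1h3h does. The range of 11 to 30 nt also covers most of a spacer of median length. The parts of base composition and spacer length in these distances were not tested. RefSeq places the 3′ end of 59 of 67 matched genes 4 to 8 nt after the stem (median 5 nt). A cDNA that stopped at the first stem base could therefore be at most 20 nt long, against 39 nt at the median spacer position. The commonest stem-loop is identical in 41 genes, and whether reads from stem-loops can be placed at a single gene was not measured. The parts of cDNA length and of shared sequence in the empty stem-loop were not tested.

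**Figure D1:**
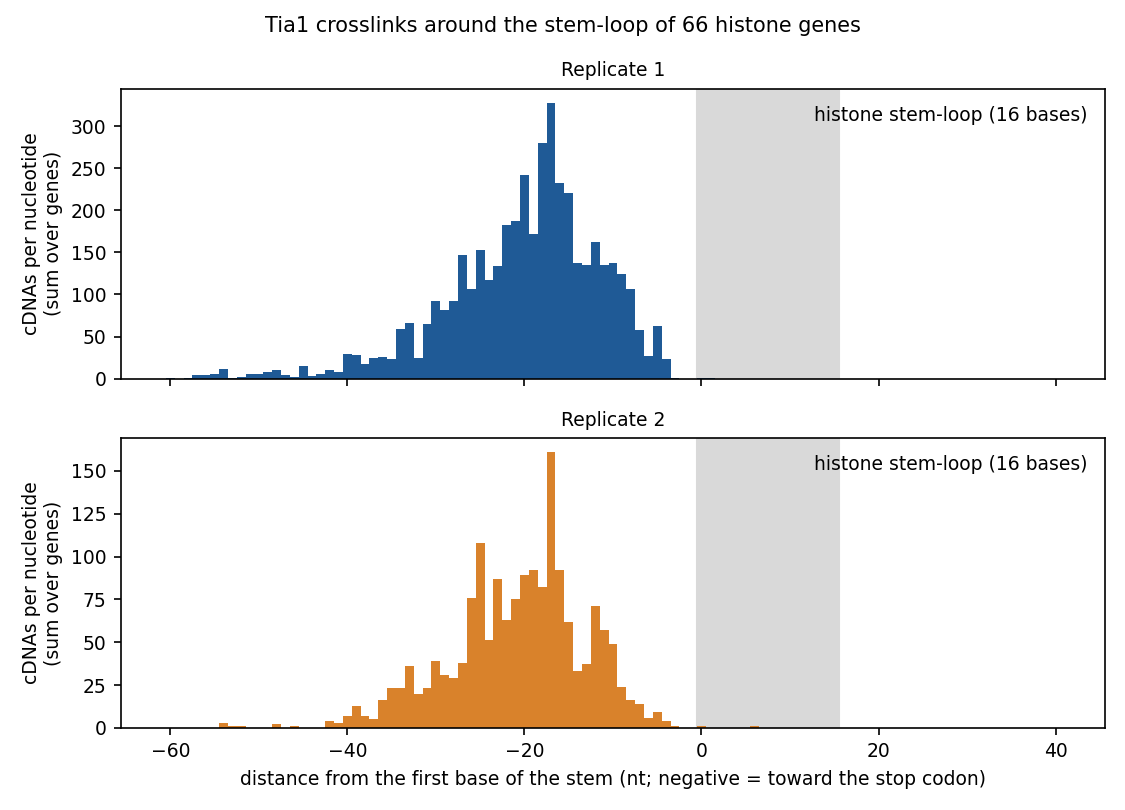
Unique cDNAs at each nucleotide (vertical axis, summed over genes, scaled separately for each replicate) by distance from the first base of the stem (horizontal axis, nt, negative toward the stop codon) in 66 stem-loop histone genes, replicate 1 above replicate 2. Both replicates peak 17 nt before the stem (328 cDNAs in replicate 1, 161 in replicate 2), and the grey stem-loop held 2 cDNAs in each.

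Spacers with long U runs held most of the cDNAs, a grouping made after the values were seen. The 5 genes with a run of at least 5 U (Hist1h4d, Hist1h2af, Hist1h4a, Hist1h3c and Hist1h3h) had a median of 724 cDNAs (173 to 1811) and 4049 in all (2742 and 1307). A longest run of 4 U gave a median of 26 over 5 genes (0 to 604), a run of 3 U a median of 11 over 27 genes (0 to 80) and shorter runs a median of 4 over 29 genes (0 to 78). All 66 genes share both libraries and their depth, and Tia1 crosslinks are read mostly at U, so base composition enters the counts as well as the grouping. Sequence that recurs in the genome also moved with the counts. All 10 spacers in which no 30-mer is unique had 0 cDNAs, and 2 of the 19 spacers with under 50% unique 30-mers had any, against 37 of the 41 spacers that are unique throughout (median 21). Within those 41, the medians were 449 for runs of at least 5 U (4 genes), 271 for 4 U (3 genes), 21.5 for 3 U (18 genes) and 12 for shorter runs (16 genes).

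The following spacers, with cDNAs or with none, illustrate U content and recurring sequence. Capitals again mark low-FDR sites, and the sequences are from the same genome.
Hist1h4f, chr13:23551307-23551331, minus strand: gCTCacctggagCTTCTTTCTcaaa
Hist1h4m, chr13:21812099-21812128, plus strand: tgctcacctagagcttctttctcaactaaa
Hist1h3b, chr13:23752791-23752819, plus strand: acgaaacaaagtgcaaactggaacccaaa
Hist1h1b, chr13:21779853-21779882, minus strand: gtttgcttgcgacagcaacaaagccccaaa
Hist1h4f had 57 cDNAs (52 and 5) in a spacer that is unique throughout. Hist1h4m carries almost the same bases and had 0, and none of its 30-mers is unique, the same spacer being present in Hist1h4n, also at 0. In Hist1h3b (93.1% unique, 6.9% U) and Hist1h1b (100% unique, 16.7% U) the spacer also had 0 cDNAs. The sources used here do not say what was done with reads that match several places, and its part in the zeros was not tested.

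**Figure D2:**
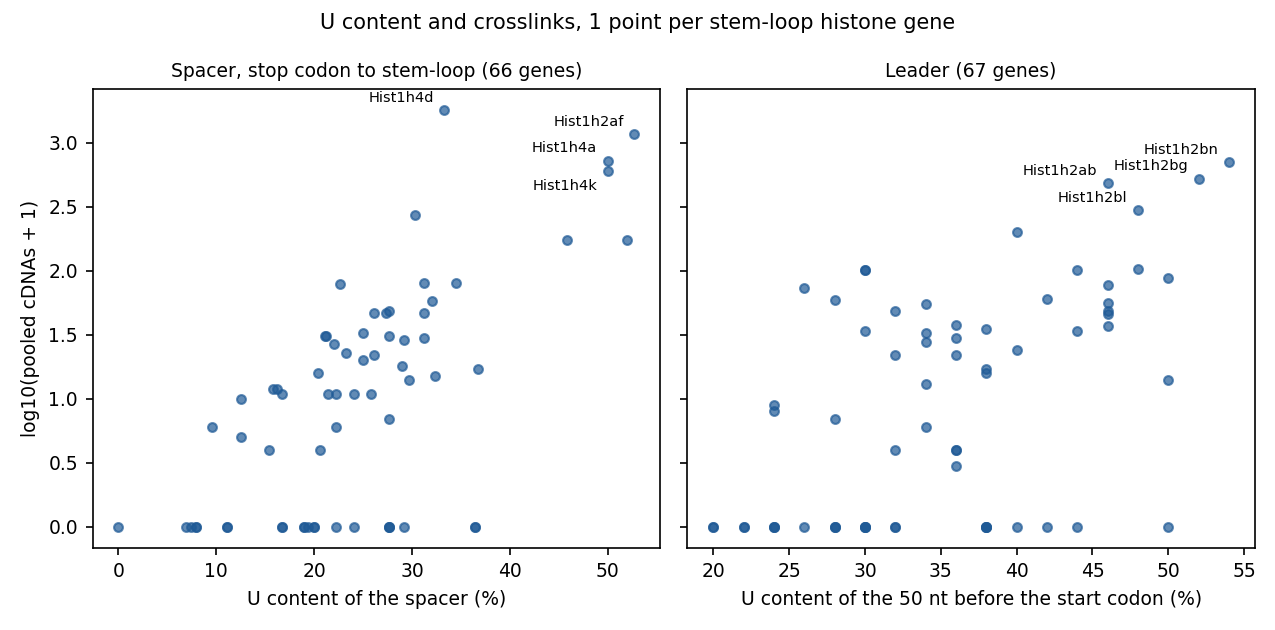
Pooled cDNAs (vertical axis, log10 of cDNAs plus 1) by U content in % (horizontal axis) for the spacer of 66 genes (left) and for the leader of 67 genes (right, cDNAs over 100 nt and U content over 50 nt before the start codon), 1 point per stem-loop histone gene. The 4 genes with most cDNAs are named in each panel, Hist1h4d (1811) leading the spacers and Hist1h2bn (708) the leaders.

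A second region of binding lay just before the start codon. It was measured over the 100 nt before the start codon, called the leader, because 11 of the stem-loop genes have no annotated 5′UTR, and this measure was chosen after the values were seen. The windows below, of 30 nt each, held the most leader cDNAs, with capitals as before.
Hist1h2bn, chr13:21754079-21754108, plus strand: TTTCTTTTCTTTCTGTATCTTTaGGCTTTT
Hist1h2bg, chr13:23571390-23571419, plus strand: CTCATTTCCTGTTTTATCTTTCTCTTTGTT
Hist1h2ab, chr13:23751083-23751112, plus strand: ATaTTCTTTTCCTTTCTCTGCTTTgCCTTT
Hist1h2bl, chr13:21716159-21716188, minus strand: CTTTTAGTTATCCTTTTTCAacTTagTTCa
Hist1h2bb, chr13:23746759-23746788, plus strand: gTTTCtGaccaTTTTgtgTGTCTTCTTTTG
The window of Hist1h2bb lies in its annotated 5′UTR. That of Hist1h2bg begins just upstream of the annotated 5′UTR and runs into it, and 62 of the leader cDNAs of this gene lay outside the annotation. Those of Hist1h2bn, Hist1h2ab and Hist1h2bl lie outside annotated exons.

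Hist1h2bn, an H2B gene, had 708 leader cDNAs, 405 in replicate 1 and 303 in replicate 2, and no spacer cDNA. Its spacer is 20.7% unique by 30-mers and its leader 100%, so that 0 does not show a lack of binding there. Hist1h2bg, also H2B, had 525 (348 and 177), the H2A gene Hist1h2ab 482 (352 and 130), and the H2B genes Hist1h2bl and Hist1h2bb 298 (203 and 95) and 200 (174 and 24). Among all 31-nt windows, those of Hist1h2bn, Hist1h2bg, Hist1h2ab and Hist1h2bl ranked 16, 38, 47 and 116. By annotated 5′UTR, Hist1h2bg (463 cDNAs, 299 and 164) ranked 3 among all genes and Hist1h2bb (200) ranked 13. The H3 genes Hist1h3d and Hist1h3f, with 101 each (82 and 19 in Hist1h3d, 90 and 11 in Hist1h3f), shared rank 21.

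Of the 67 leaders, 42 held cDNAs, 29 in both replicates and 34 with at least 10, and the total was 3640 (2599 and 1005). Nearly all lay close to the start codon, with 99.0% (98.6 to 99.3) within 50 nt and a median of 29 nt before it (26 nt in replicate 1 and 33 nt in replicate 2). The leader is genome sequence, and many annotated 5′UTRs of these genes are shorter than 50 nt, such as those of Hist1h2bg (37 nt) and Hist1h3d (39 nt). Much of the farther sequence may thus lie outside the mRNA, and closeness to the start codon was not tested apart from 5′UTR length. Genes with a run of at least 5 U in those 50 nt had a median of 45 cDNAs (11 genes), those with 4 U a median of 29 (21 genes), those with 3 U a median of 3 (23 genes) and the rest a median of 0 (12 genes). These leaders share the same libraries, and base composition again enters both the counts and the grouping. Here too the 8 leaders without a unique 30-mer had 0 cDNAs, against a site in 27 of the 38 leaders that are unique throughout (genes with a stem-loop). In the variant genes the highest leader count was 3, in H2afx.

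**Figure D3:**
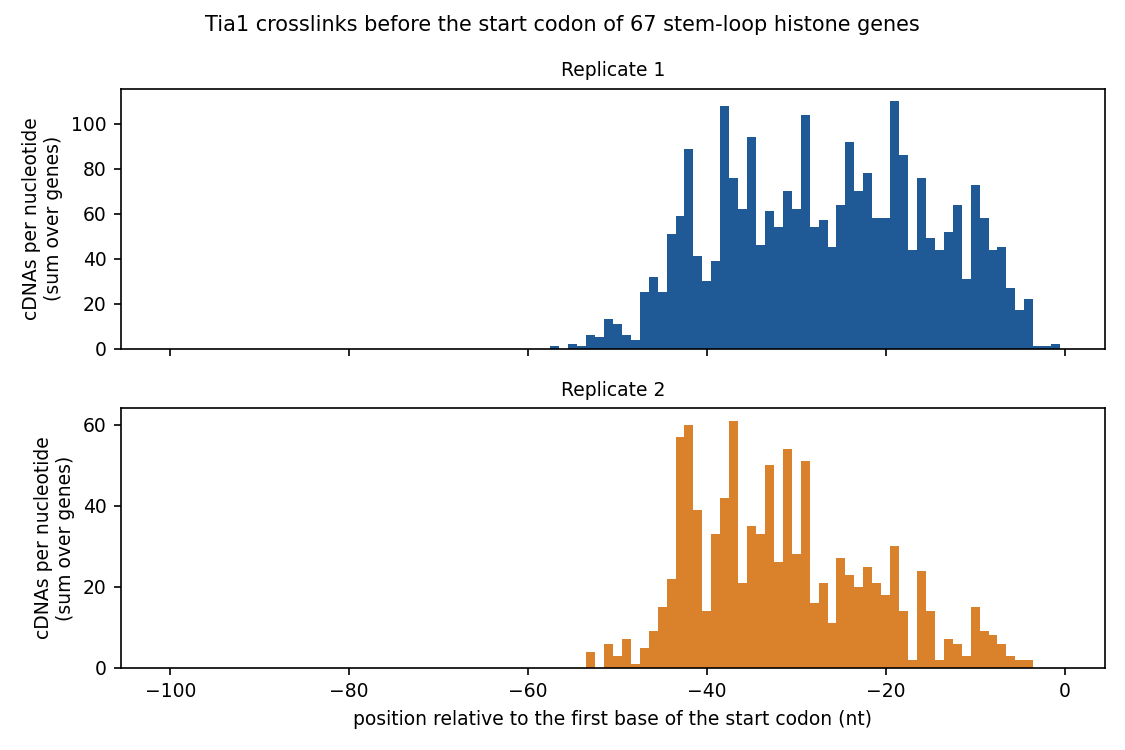
Unique cDNAs at each nucleotide (vertical axis, summed over genes, scaled separately for each replicate) by position relative to the start codon (horizontal axis, nt) in 67 stem-loop histone genes, replicate 1 above replicate 2. In the pooled list 99.0% of the 3640 leader cDNAs lie within 50 nt of the start codon, and the highest nucleotide is 19 nt before it in replicate 1 (110 cDNAs) and 37 nt before it in replicate 2 (61 cDNAs). Positions are on the genome, and many annotated 5′UTRs are shorter than 50 nt.

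Over the whole transcript of the stem-loop genes, leader and spacer together held nearly all cDNAs. Of 10035 (7198 and 2716), 58.3% lay in spacers (57.4 to 59.3), with 57.8% in replicate 1 and 60.8% in replicate 2. Leaders held 36.3% (35.3 to 37.2), with 36.1% and 37.0%. The CDS held 4.19% (4.78% and 1.73%), sequence past the stem-loop 1.18% and the stem-loop itself 0.0399% (0.0109 to 0.102). Annotation hides part of this, because 2108 of the spacer cDNAs and 1997 of the leader cDNAs lay outside annotated exons of these genes. RefSeq gene spans enclosed 100% of the spacer cDNAs and 91.1% of the leader cDNAs. The coding sequences are near copies of each other, with a median of 19.8% unique 30-mers and under 50% in 53 of 67 genes, so their CDS counts are uncertain. The stem-loop count carries the limits of cDNA length and shared sequence given above.

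The 2 regions were used to different degrees in the core histone families, which package DNA into nucleosomes, and in the H1 linker family. Of the leader and spacer cDNAs of the 13 H4 genes, 91.5% lay in the spacer (90.4% in replicate 1 and 94.5% in replicate 2), and 85.8% did so without Hist1h4d. Of those of the 18 H2B genes, 8.05% lay in the spacer (10.1% and 2.34%), and 11.8% did so without Hist1h2bn. Under 50% of the 30-mers were unique in 9 of these 18 H2B spacers and 2 of the 13 H4 spacers, against 2 of the H2B leaders and 3 of the H4 leaders, so the counts of the H2B spacers are less certain, and the part of this in the contrast was not tested. H1 genes gave 30.3% in the spacer (34.4% and 7.84%) and H3 genes 57.5% (58.3% and 53.4%). H2A genes gave 67.1% (66.4% and 69.3%), but 26.7% without Hist1h2af. By gene, 34 of 66 had cDNAs in both regions, 8 in the leader alone, 10 in the spacer alone and 14 in neither. The spacer count was the higher in 26 genes and the leader count in 25. Family shares were computed after the values were seen and were not tested.

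Histone H4 had the largest exonic counts. Beside Hist1h4d (1885 exonic cDNAs, 1226 and 659), Hist1h4a (787, 508 and 279) and Hist1h4b (284, 223 and 56), Hist1h4h had 122 (107 and 14), of which 78 were in the spacer. Hist1h4j had 79 (68 and 11), all in the spacer, and Hist1h4f 65 (59 and 5). Hist4h4 was bound mostly before the start codon, with 77 of 92 (68 and 22) in its 5′UTR. Hist1h4m had 54 (47 and 1) and Hist1h4n 27 (20 and 7), in both cases all in the 5′UTR. Hist1h4c had 37 (32 and 5), Hist2h4 32 (20 and 8), Hist1h4i 19 (16 and 0) and Hist1h4k, whose spacer is not annotated, 26 in its CDS (18 and 8). Of these H4 genes only Hist1h4i had no called exonic site in replicate 2.

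Among H3 genes, Hist1h3c had 208 exonic cDNAs (176 and 32), 174 of them in the spacer. Hist1h3d had 111 (92 and 19), with 101 before the start codon and 10 in the spacer, and Hist1h3f had 101 (90 and 11), all in the 5′UTR. Hist1h3g had 69 (60 and 8), split into 46 in the 3′UTR, 14 in the 5′UTR and 9 in the CDS. Hist1h3b had 40 (30 and 10), with 37 in the 5′UTR, Hist1h3a 37 (32 and 0) and Hist2h3b 22 (22 and 0), all in the 3′UTR. Spacer-led and leader-led genes thus stood side by side in this family.

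H2B genes were led by 5′UTR binding in Hist1h2bg (483, 311 and 167) and Hist1h2bb (261, 225 and 29, with 61 in the CDS). Hist1h2bh had 67 (55 and 11), with 57 in the 5′UTR, and Hist2h2bb 66 (60 and 4), all in its CDS since it has no annotated UTR. Outside annotated exons, Hist2h2bb had a further 100 in its leader (68 and 28) and 30 in its spacer (26 and 4). Hist1h2be had 50 of 54 (45 and 3) in the 3′UTR, and a further 48 (43 and 5) in its leader outside annotated exons. Hist1h2bk had 57 (54 and 0), Hist1h2bm 13 (7 and 3), Hist1h2bn 11 in its CDS (10 and 0) and Hist1h2bf 10 (9 and 0).

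Among H2A genes Hist1h2ae had 113 exonic cDNAs (92 and 19), with 80 in the spacer and 33 in the 5′UTR. Hist3h2a also had 113 (87 and 25), 87 of them in the 5′UTR, and these sites overlap another annotated gene. Hist1h2ab had 52 (46 and 3), Hist1h2ac 16 (13 and 0), Hist1h2ag 16 (11 and 0) and Hist1h2ad 14 (12 and 0). The H1 genes encode linker histones. Hist1h1c had 138 (111 and 18), with 73 past its stem-loop (57 and 7) and 55 in its 5′UTR, and was the stem-loop gene with most cDNAs past the stem-loop. Hist1h1a had 117 (95 and 19), nearly evenly in 5′UTR (54) and 3′UTR (46), Hist1h1d 75 (57 and 14), Hist1h1b 53 (42 and 11), with 45 in the 5′UTR, and Hist1h1e 37 (32 and 0). The 7 genes with 1 to 9 exonic cDNAs had at most 7 in replicate 1 and 2 in replicate 2.

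The share of exonic cDNAs by annotated feature set the stem-loop genes apart from the variants. In the 5′UTR lay 27.8% (26.7 to 29.0) of the 5906 exonic cDNAs of stem-loop genes (4323 and 1483), with 28.7% in replicate 1 and 25.3% in replicate 2. Variant genes had 0.692% (0.279 to 1.42) of 1012 exonic cDNAs (756 and 221) there, with 0.926% in replicate 1 and none of 221 in replicate 2, whose interval reaches 1.66%. All other genes had 1.47%, with 1.46% in each replicate. The 5′UTR share of stem-loop genes was thus far above both others in either replicate. The 3′UTR held 65.1% (63.8 to 66.3) in stem-loop genes (63.3% and 71.5%), 96.2% (94.9 to 97.3) in variant genes (96.4% and 98.6%) and 91.1% in all other genes (91.1% and 94.8%). The counting intervals of both classes did not overlap in either replicate, but they leave out the spread between genes. A single gene weighs on the values. Hist1h4d held 31.9% of the exonic cDNAs of its class, and without it the 3′UTR share of stem-loop genes was 50.4% and the 5′UTR share 40.8%. H3f3b held 37.5% of those of the variants, and without it their 3′UTR share was 96.7%. Per kb of annotated sequence, stem-loop genes had 338 cDNAs in 5′UTRs, 15.5 in the CDS and 124 in 3′UTRs, against 2.39, 3.42 and 89.8 in variant genes and 1.43, 1.5 and 20.3 in all other genes.

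**Figure D4:**
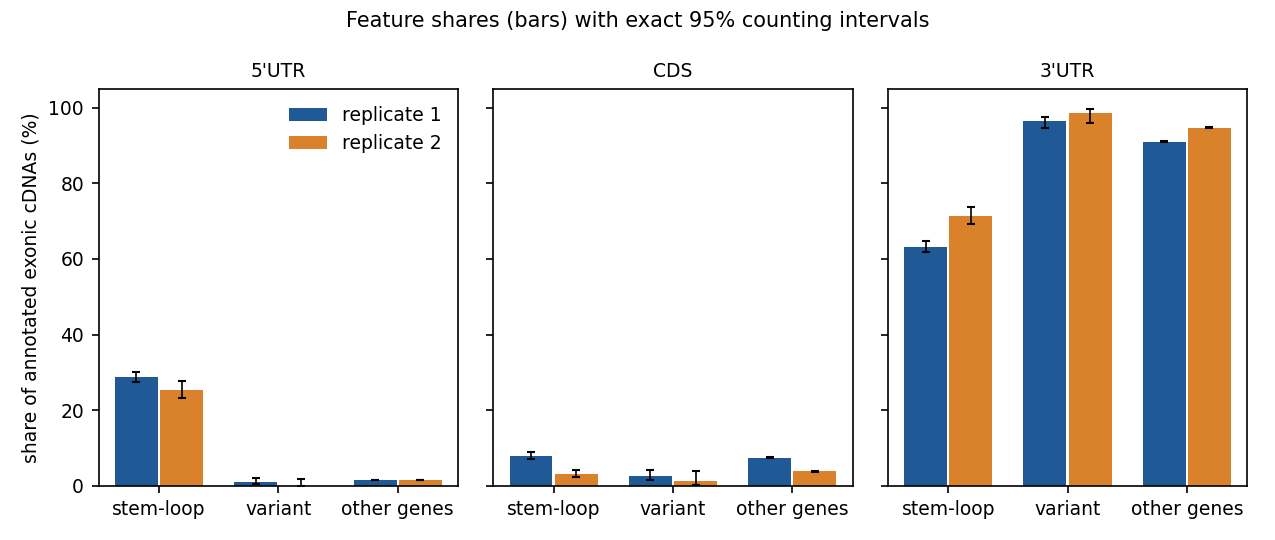
Share of annotated exonic cDNAs (vertical axis, %) in 5′UTR, CDS and 3′UTR for stem-loop histone genes, variant genes and all other protein-coding genes (horizontal axis), with replicate 1 in blue, replicate 2 in orange and exact 95% counting intervals as error bars. The 5′UTR share of stem-loop genes is 28.7% and 25.3%, that of variant genes 0.926% and 0.0%.

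Few cDNAs lay past the stem-loop, shortly after which most replication-dependent mRNAs are cut. Counted over 1000 nt past the stem-loop, and without sites in exons or leaders of neighbouring genes, 1.85% of the cDNAs between the start codon and the end of that window lay there. With those sites kept the share was 7.91%, which includes the neighbours in the tightly packed cluster on chromosome 13. Of the 118 cDNAs behind the 1.85%, 73 (57 and 7) were in Hist1h1c. The annotated 3′UTR of this gene (880 nt) runs past its stem-loop, whereas RefSeq ends the gene 4 nt after the stem. H2afx, the variant with a stem-loop, is known to yield both stem-loop and polyadenylated mRNAs. All 72 of its 3′UTR cDNAs (65 and 2) lay past the stem-loop, 697 to 852 nt after the stop codon and within 187 nt of the annotated gene end, and its spacer, with 4.35% U, had none. Replicate 2 held 2.99% (0.364 to 10.4) of those at sites called in a replicate, against 20.6% in the series. Its uncalled cDNAs are left out, so a lower share is not shown.

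Among the variants, binding lay almost wholly in 3′UTRs. The following 30-nt windows are those with most cDNAs in the 4 variants described next, with capitals at low-FDR sites as before and all in annotated 3′UTRs.
H3f3b, chr11:116022528-116022557, minus strand: tTcggtTTcgTTTCTTTTTAAtCTTTAaGg
H3f3a, chr1:180802736-180802765, minus strand: gcATtTggaTTTTTTtaaaataagtaaatt
H2afy, chr13:56073729-56073758, minus strand: aaCTTTTgtTTACTTTTTTTgTCTTaAcGa
H2afv, chr11:6428226-6428255, minus strand: TTTTagaCtcggaGTTTGatgagtcccTTT
H3f3b and H3f3a encode the same replacement histone H3.3. H3f3b had 363 3′UTR cDNAs, 254 in replicate 1 and 98 in replicate 2, at 134 sites spread between 2 and 1077 nt after the stop codon (median 867 nt). It had a further 13 in the CDS and 4 in the 5′UTR. H3f3a had 51 (31 and 20), at 9 sites that all lay between 314 and 326 nt after the stop codon of a 3′UTR of 2245 nt. Called sites were thus spread along the H3f3b 3′UTR and lay in a 13-nt stretch of that of H3f3a. The H3f3a 3′UTR is 78.5% unique by 30-mers and that of H3f3b 67.5%, and H3f3a had far fewer cDNAs, so the difference in spread was not tested apart from depth and unique sequence. Replicate 2 gave 27.8% (23.2 to 32.8) of the H3f3b cDNAs and 39.2% (25.8 to 53.9) of the H3f3a cDNAs.

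H2afy encodes macroH2A1, an H2A variant with a large globular domain, and had 317 3′UTR cDNAs (243 and 70) at 116 sites between 142 and 579 nt after the stop codon, plus 18 in the CDS. Its relative H2afy2, which encodes macroH2A2, had none. H2afv and H2afz encode forms of H2A.Z. H2afv had 99 (71 and 28) at 32 sites between 109 and 195 nt after the stop codon, and H2afz 17 (16 and 0) within 24 nt. The 3′UTR of H2afz is 12.2% unique by 30-mers and that of H2afv 98.2%, so the counts of this pair do not compare on equal terms. H1f0, a linker histone of cells that leave division, had 55 (49 and 0) over 997 nt. Replicate 2 had no called site there, with an interval reaching 7.25% of the cDNAs at called sites. Its uncalled cDNAs still entered the pooled count, as at 877 nt after the stop codon, with 7 pooled and 4 in replicate 1. Besides H2afy2, the variants with no exonic cDNA were H1fnt, H1foo, H1fx, H2afb1, H2afb2, H2afb3 and H2afj. In rank among 3′UTRs of all genes H3f3b stood at 403 and H2afy at 491.

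**Figure D5:**
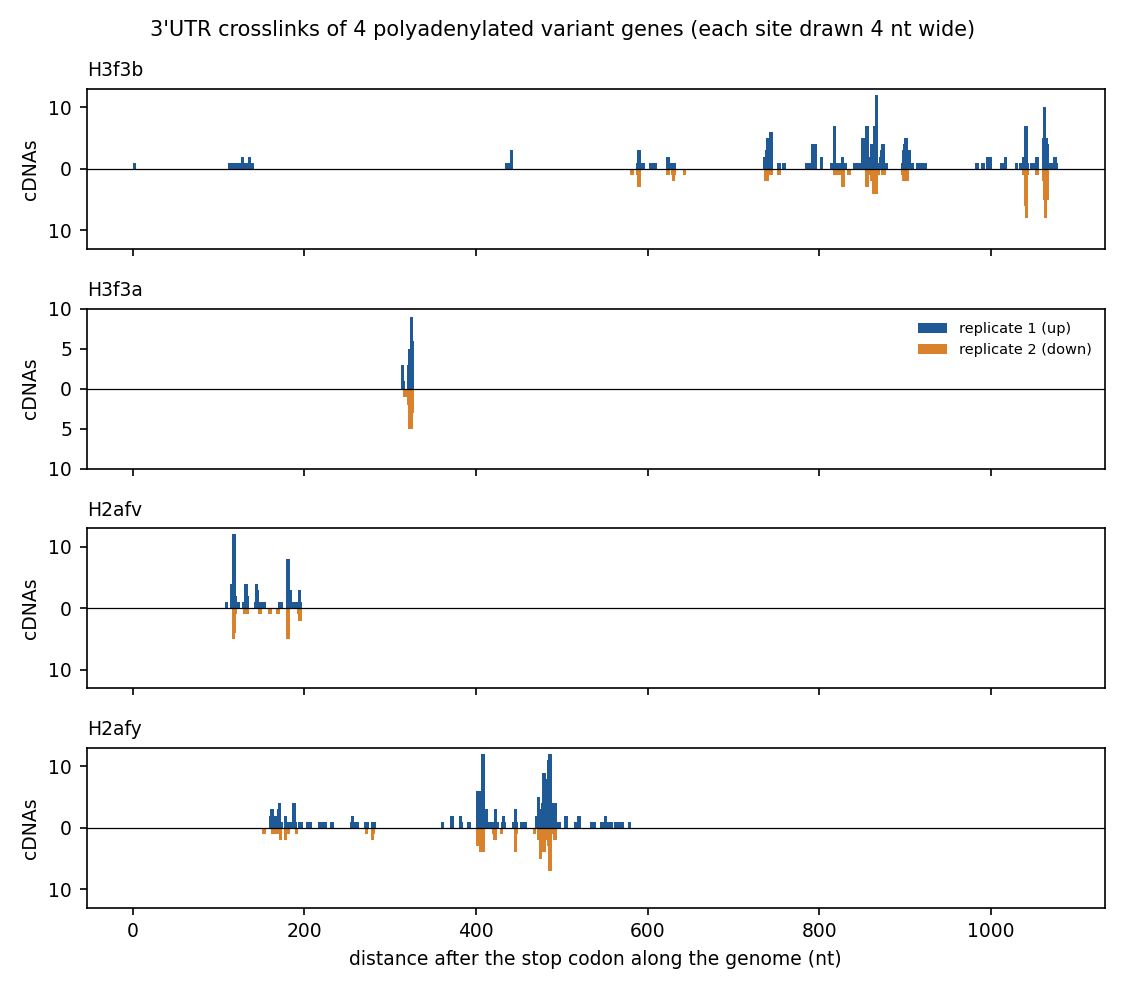
Unique cDNAs at each 3′UTR site (vertical axis, replicate 1 upward, replicate 2 downward, each panel on its own scale) by distance after the stop codon along the genome (horizontal axis, nt) in H3f3b, H3f3a, H2afv and H2afy. The 9 sites of H3f3a lie between 314 and 326 nt, whereas the 134 of H3f3b run between 2 and 1077 nt.

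The sequence around the sites was rich in U in both classes. In the 31 nt centred on exonic sites, weighted by cDNAs, the U content was 40.1% in stem-loop genes (39.4% and 42.8%), 42.9% in variant genes (42.8% and 45.1%) and 46.3% in all other genes (46.0% and 50.3%). Within stem-loop genes it was 49.2% around 5′UTR sites, 38.2% around 3′UTR sites and 22.3% around CDS sites, against a U content of 31.8%, 31.5% and 13.4% over the whole of those features. The annotated 3′UTRs of these genes (30902 nt) include sequence past the stem-loop, while the spacers are 2147 nt in all, so 31.5% is not the U content of the spacers. In variant genes it was 43.5% around 3′UTR sites, against 30.3% over whole 3′UTRs. The crosslinked base itself was U for 76.8% of the exonic cDNAs of stem-loop genes (74.1% and 84.3%), 84.4% of those of variant genes (82.1% and 93.7%) and 82.8% of those of all other genes (81.5% and 89.1%). Both measures were higher in replicate 2 than in replicate 1 in all 3 groups of genes.

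Transcripts of the proteins that process or degrade histone mRNA, or that deposit histones, mostly had a 3′UTR site. Of 21 genes listed for histone mRNA processing and decay, 18 had a 3′UTR site and 17 had one in both replicates, against 35.0% and 22.2% of all genes with an annotated 3′UTR. Their median was 66 cDNAs, against 0 over all genes and 28 over genes with at least 1. Tut4, an enzyme that adds uridines to RNA ends, had 479 (358 and 118), Cpsf2, a subunit of the complex that cuts pre-mRNA 3′ ends, 228 (166 and 48), and the histone pre-mRNA processing factor Casp8ap2 195 (128 and 57). Slbp, which holds the stem-loop, had 66 (49 and 13). Of 20 genes listed as histone chaperones and deposition factors, 19 had a 3′UTR site and 18 had one in both replicates, against the same 35.0% and 22.2%, with a median of 107 cDNAs. The H2A.Z chaperone Anp32e had 678 (531 and 124), Rbbp4, a subunit of chromatin assembly factor, 671 (519 and 143), and the FACT subunit Supt16 608 (467 and 127).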

How the data were processed

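Tia1 iCLIP was carried out on 2 replicates of LPS-activated B cells. The authors ran the iCount pipeline with Bowtie (its version is not stated in the sources used here) on the mouse build mm9, used barcodes to identify samples and PCR duplicates, and lifted the pooled sites to mm10. Each deposited value is a count of unique cDNAs at 1 nucleotide, signed by strand and not scaled to depth, at sites the authors called as low-FDR within genomic regions taken separately. The highest counts may be understated where random barcodes run out. Their handling of reads with several matches is not stated.

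Sites of a replicate were placed on GRCm38 through the pooled list at the same mm9 nucleotide, which reached 98.9% of the cDNAs of replicate 1 and 99.1% of those of replicate 2. Counts were summed by 5′UTR, CDS and 3′UTR of GENCODE M21 on the strand of the gene. All members with at least 10 exonic cDNAs were named, and of each listed group the 3 genes with most 3′UTR cDNAs, plus Slbp, chosen after its value was seen. A 30-mer was unique if it occurred once in the RefSeq genome, either strand included. The search for stem-loops and the assignment of sites were tested on simulated data. Other site filters, windows, classes and gene ends were tried as alternatives. The members and lists were chosen with earlier results of these data known. The analysis ran in Python 3.11.15 with pandas 2.3.3, numpy 2.4.6, matplotlib 3.10.9 and scipy 1.17.1.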

Additional observations from a re-analysis of the deposited data

How the results depend on the processing

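No paired analysis was possible because the series has 1 group. Of 124 recomputed values, 91 moved by less than the spread between replicates or, for counts of genes, stayed within 1.5 times. For cDNA totals that spread is wide because the replicates differ in depth (2010 for the exonic cDNAs of stem-loop genes). Leaving out either replicate is among the alternatives and also sets the spread, so the 91 says little about how stable the cDNA totals are. The alternatives with the stem-loop as the end of the 3′UTR, without leading genes or without neighbours, and all those of spacers and leaders, were chosen after seeing the data.

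With either replicate left out, stem-loop genes with a 3′UTR site numbered 18 to 34, their exonic cDNAs 1483 to 4323, their 3′UTR share 63.3% to 71.5% and the U content around their sites 39.4% to 42.8%. For variants the exonic cDNAs were 221 to 756, the 3′UTR share 96.4% to 98.6% and the U content 42.8% to 45.1%. The share past the stem-loop was 4.92% to 8.54%, spacers with a site 24 to 42, spacer cDNAs 1652 to 4163, their median distance 18 to 20 nt and leader cDNAs 1005 to 2599.

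At 5 or more cDNAs a site, 22 stem-loop genes had a 3′UTR site, their 3′UTR share was 72.8% and the share past the stem-loop 4.32%, and variants had 482 exonic cDNAs, a 3′UTR share of 100% and a U content of 46.9%. At 2 or more, the 3′UTR share of variants was 98.6%. With at least 5 cDNAs in the 3′UTR required in each replicate, 10 stem-loop genes had a site in both. In windows of 11 nt the U content was 51.5% for stem-loop genes and 52.9% for variants, and with each site counted once 34.5% and 39.6%. Past the stem-loop, 300 nt gave 0.397%, leaving out neighbouring genes 1.85% and leaving out Hist1h4d 10.9%. With the 3′UTR extended to the stem-loop, stem-loop genes had 8014 exonic cDNAs, a 3′UTR share of 74.3% and a U content of 45.5%. Without Hist1h4d their 3′UTR share was 50.4%, and without H3f3b variants had 632 exonic cDNAs. Without Hist1h4d and Hist1h2af the spacers held 2875 cDNAs at a median of 16 nt. Replicate 1 is the deeper library. Some genes at 0 in replicate 2 had an exact upper limit below the 20.6% that replicate 2 gave of all placed cDNAs. These were H1f0 (7.25% of the exonic cDNAs at called sites of both replicates), Hist1h2bk (6.6%), Hist1h3a and Hist1h1e (10.9% each) and Hist2h3b (15.4%). The limits leave out uncalled cDNAs of replicate 2, so a lower share of replicate 2 in these genes is not shown. At the H1f0 site 877 nt after the stop codon, for example, 7 pooled cDNAs stood against 4 in replicate 1.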
